A study of Mus musculus with 9 samples.

Results

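The hepcidin and iron regulation genes are 10 named mouse genes, Hamp, Hamp2, Bmp6, Hfe, Tfr2, Tmprss6, Id1, Smad7, Tfrc and Slc40a1, taken by name from the 41388 genes of each count table. All 10 were found by their Ensembl identifiers and all 10 passed the filter on low counts. They were read in polyadenylated RNA from whole liver of male C57BL/6J mice of 3 genotypes. The Fabp1 Mttp DKO mice (DKO) lacked Mttp in the liver and Fabp1 in the germline, the MttpLKO mice lacked Mttp in the liver, and the control mice carried floxed Mttp (Mttp fl/fl). All 3 groups, controls included, had received diethylnitrosamine (DEN), a liver carcinogen, at 25 mg per kg by intraperitoneal injection at 14 days of age, ate standard chow and were killed at 6 months, so no group was free of the carcinogen. The transgene that removes Mttp from the liver is not named in the sources used here, nor is the share of tumour in the tissue, and no group with Fabp1 deletion alone was analysed here. Each genotype had 3 libraries and each library pooled RNA of 3 mice, so the p-values measure the spread between pools and not between single mice.

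Hepcidin is a peptide hormone that hepatocytes secrete. It binds ferroportin, the iron exporter on gut, macrophage and liver cells, and sends it for degradation, so that less iron enters the blood. Its gene is switched on by BMP6, which liver endothelial cells release, through BMP receptors and SMAD proteins, and also by interleukin 6 through STAT3 during inflammation. The liver adjusts the BMP arm to circulating iron through HFE and transferrin receptor 2, and TMPRSS6, a membrane protease that cleaves the co-receptor hemojuvelin, restrains it. Mice carry a pair of hepcidin genes. Hamp encodes the iron hormone, and Hamp2 is a near copy whose product has not been shown to act on iron in mice.

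Both hepcidin genes lie on the minus strand of chromosome 7. Hamp (ENSMUSG00000050440) spans positions 30942371 to 30944017 and Hamp2 (ENSMUSG00000056978) spans 30922372 to 30924181, as the deposited tables give them, on coordinates of GRCm38. The 2 genes are 18190 bases apart, and the transcription factor gene Usf2 lies 1235 bases from Hamp. Their upstream sequences are shown because the hepcidin promoter is where the BMP and STAT3 signals are read. Both come from RefSeq (GRCm38.p6, minus strand, 5′ to 3′). The Hamp window is chr7:30944033-30944279 and the Hamp2 window is chr7:30924182-30924431. In GENCODE M21 no exon falls in either window, and the Hamp2 window lies in an intron of a longer Hamp2 transcript. The first capitals mark the core of the BMP response element, GGCGCC, and in Hamp2 the letters aligned with it. The second capitals mark the STAT motif TTCNNNGAA.
Hamp upstream: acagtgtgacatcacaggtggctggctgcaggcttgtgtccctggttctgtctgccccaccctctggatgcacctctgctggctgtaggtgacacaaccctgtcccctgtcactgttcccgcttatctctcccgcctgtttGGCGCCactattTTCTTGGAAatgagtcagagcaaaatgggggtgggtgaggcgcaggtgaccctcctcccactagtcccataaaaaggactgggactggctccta
Hamp2 upstream: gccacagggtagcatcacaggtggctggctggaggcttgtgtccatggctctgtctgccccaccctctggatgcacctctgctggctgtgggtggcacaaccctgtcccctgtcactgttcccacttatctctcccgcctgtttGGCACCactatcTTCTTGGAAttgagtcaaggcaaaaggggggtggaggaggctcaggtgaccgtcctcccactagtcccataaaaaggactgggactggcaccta

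The 2 upstream windows were identical at 227 of 250 aligned positions (90.8%). Hamp held GGCGCC from 109 to 104 bases before its RefSeq start, and the STAT motif from 97 to 89 bases before it. Hamp2 held the same STAT letters from 94 to 86 bases before its own start. At the BMP element Hamp2 carried the substitution G4A, counted from the first base of the 6 letters in Hamp, and had no GGCGCC on either strand of its window. Among 32851 mouse promoters read over the same 250 upstream bases on both strands, 9.59% held GGCGCC and 7.02% held TTCNNNGAA, so either match alone is common. The E-box CACGTG, which 6.02% of promoters held, was in neither hepcidin window. RefSeq promoters were matched for 6 of the 10 genes. Outside the hepcidin pair, GGCGCC was found once, in the first of the 2 Tfrc promoters, and CACGTG once, in Bmp6, and none of the 3 motifs was in the Hfe promoter or the 3 Tfr2 promoters. A match describes letters and not a bound site, and the part of any differing base in the levels of Hamp and Hamp2 was not tested.

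The coding sequences of Hamp and Hamp2 have 83 codons each and were identical at 233 of 249 bases (93.6%). Of the 16 bases that differ, 14 lie in the last 25 codons, the stretch that encodes the secreted hormone in Hamp. These 75 bases are printed from the GENCODE M21 transcripts with the differing bases in capitals.
Hamp, last 25 codons: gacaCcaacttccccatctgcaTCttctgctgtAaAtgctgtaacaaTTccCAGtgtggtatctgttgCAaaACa
Hamp2, last 25 codons: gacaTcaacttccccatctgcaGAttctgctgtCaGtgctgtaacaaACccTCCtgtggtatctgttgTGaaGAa

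How far reads can tell the copies apart depends on their length. A run of 25 bases from the Hamp transcript occurred unchanged in Hamp2 in 40.4% of its positions, a run of 50 bases in 16.6%, a run of 75 in 3.87% and a run of 100 in none. Neither the read length nor the treatment of reads that match 2 genes is stated in the sources at hand. Hamp had 21160 to 71941 counts per library and Hamp2 had 35 to 638, so a small share of misplaced Hamp reads would weigh on Hamp2 far more than the reverse, and the Hamp2 values are uncertain for that reason.

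The libraries held 23268389 to 27918197 counts. Mttp read 3.24 to 5.79 CPM (counts scaled to library size, with TMM factors) in DKO, 6.14 to 9.78 in MttpLKO and 69.4 to 180.8 in control. Fabp1 read 50.3 to 78.0 CPM in DKO, 3379 to 4984 in MttpLKO and 6060 to 6845 in control, so both genes followed their labels. Hepatocyte markers were present in all 9 libraries, with a summed level of 76014 to 109988 CPM in DKO, 110301 to 119333 in MttpLKO and 105484 to 116735 in control. MttpLKO replicate 3 stood apart in markers of B and plasma cells, at 651 CPM against 30.1 to 79.1 in the other 8 libraries, and in markers of dividing cells, at 31.3 against 7.33 to 16.8. On the first principal component of all genes it lay at 31.8 and DKO replicate 3 at -26.7, with the other 7 libraries between -6.38 and 7.29.

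**Figure D1:**
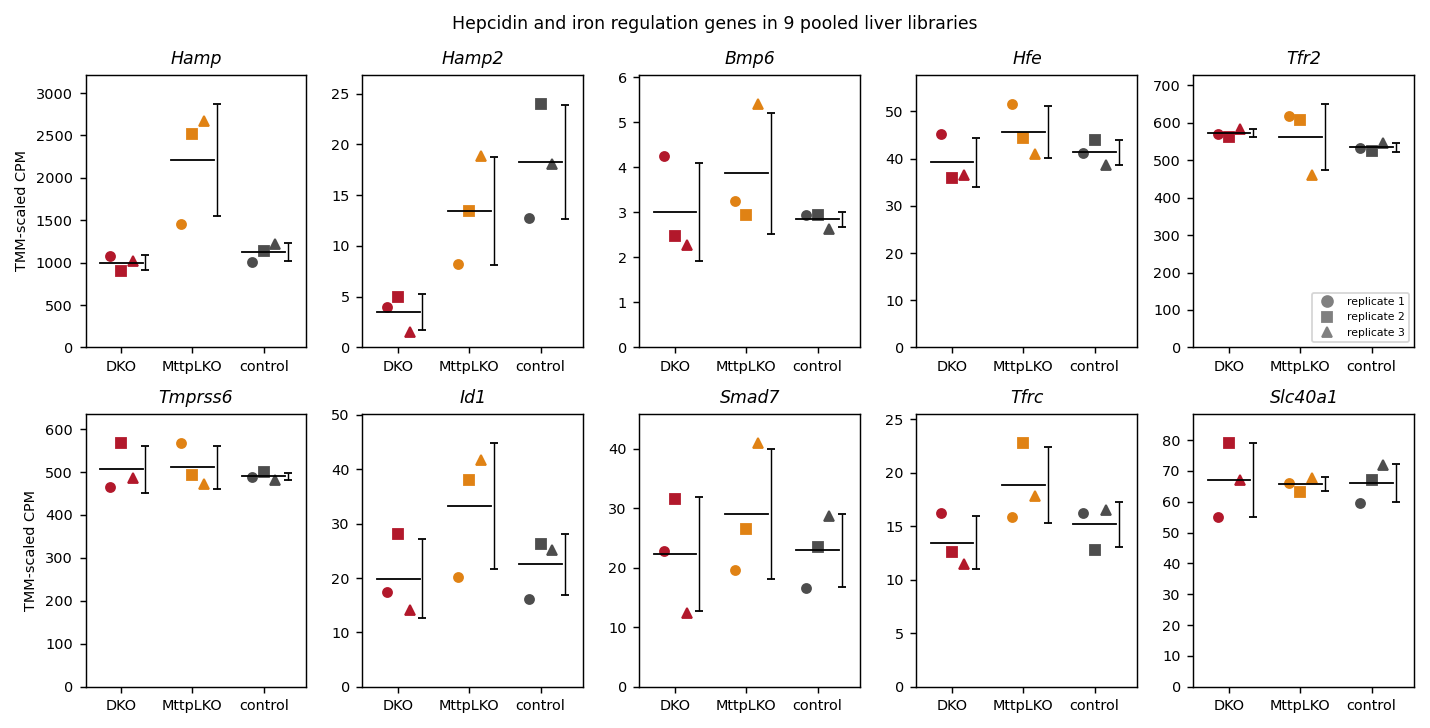
Level of each of the 10 genes in TMM-scaled CPM (y axes start at 0 and differ between panels), by genotype. Points are the 9 pooled libraries with a shape per replicate number, black lines are means and bars are SD (n = 3). The 3 MttpLKO libraries lie above all other libraries for Hamp, and the 3 DKO libraries lie below all other libraries for Hamp2.

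Hamp, the hepcidin gene, fell 2.22-fold in DKO livers when set against MttpLKO livers. Hamp2, its near copy, was 5.17-fold lower in DKO than in control livers. These were the only members past the adjusted threshold of 0.05 in any comparison, 1 gene in each of 2 comparisons, and none rose. Between DKO and MttpLKO 1 of the 10 genes was called, a fall, where 0.4% of all 14741 tested genes were called, 0.258% as rises and 0.142% as falls. Between DKO and control 1 of the 10 was called, also a fall, where 0.332% of all genes were called, 0.237% as rises and 0.095% as falls. Between MttpLKO and control none of the 10 was called by edgeR, where 0.346% of all genes were, 0.224% as rises and 0.122% as falls. At an unadjusted p under 0.05, 4 of the 10 differed in DKO against MttpLKO (9.1% of all genes), 1 in MttpLKO against control (6.97%) and 1 in DKO against control (11.2%).

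Hamp stood at 1078, 901 and 1015 CPM in the 3 DKO libraries, at 1459, 2519 and 2667 CPM in MttpLKO and at 1011, 1139 and 1217 CPM in control. All 3 MttpLKO libraries lay above all 6 others, with replicate 1 the lowest of them, and the DKO and control ranges overlapped. The means were 998 ± 89.6 CPM in DKO, 2215 ± 659 in MttpLKO and 1122 ± 104 in control (SD, n = 3 each). In DKO against MttpLKO the log2 fold change was -1.15 (SE 0.203, 95% interval -1.60 to -0.70), a level 2.22-fold lower, with an adjusted p of 0.0414 by edgeR's quasi-likelihood test with Benjamini-Hochberg adjustment. In MttpLKO against control it was 0.98 (SE 0.203, 0.53 to 1.43), a level 1.97-fold higher, but its adjusted p of 0.109 by edgeR missed the threshold. In DKO against control it was -0.17 (SE 0.201, -0.61 to 0.27), with an adjusted p of 0.815 by edgeR, an interval that spans 0. Most hepatocyte markers had differences of the same sign as Hamp, though smaller at the median. Of 12 markers, 10 were lower in DKO than in MttpLKO (median log2 difference -0.23) and 8 of 12 were higher in MttpLKO than in control (median 0.092). None of the 12 was called by edgeR, and 2 and 0 had an unadjusted p under 0.05 (9.1% and 6.97% of all genes). The part of hepatocyte content in the Hamp difference was not tested.

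The Hamp call in DKO against MttpLKO was close to the threshold. By edgeR's quasi-likelihood test it held without MttpLKO replicate 1 (log2 fold change -1.36, adjusted p 0.00259) and was lost without any other single library. Without DKO replicate 1, 2 or 3 the adjusted p by edgeR was 0.121, 0.155 or 0.126. Without MttpLKO replicate 2 or 3 it was 0.215 or 0.0811, and without control replicate 1, 2 or 3 it was 0.0629, 0.0884 or 0.0822. It was also lost when the 6 DKO and MttpLKO libraries were fitted alone (0.133 by edgeR). DESeq2, which called more genes throughout, called Hamp both in DKO against MttpLKO (adjusted p 6.49e-06) and in MttpLKO against control (0.000419). Without MttpLKO replicate 1, the rise of Hamp in MttpLKO against control passed the threshold, with a log2 fold change of 1.21 and an adjusted p of 0.00634 by edgeR. The fold change itself stayed between -1.36 and -0.995 (DKO against MttpLKO) and between 0.82 and 1.21 (MttpLKO against control) when single libraries were left out.

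Hamp2 stood at 4.02, 4.98 and 1.57 CPM in the DKO libraries, at 8.17, 13.4 and 18.8 CPM in MttpLKO and at 12.8, 24.0 and 18.0 CPM in control. All 3 DKO libraries lay below the other 6, with replicate 3 the lowest on 35 counts, and MttpLKO and control overlapped. The means were 3.52 ± 1.76 CPM in DKO, 13.5 ± 5.33 in MttpLKO and 18.3 ± 5.62 in control (SD, n = 3 each). In DKO against control the log2 fold change was -2.37 (SE 0.406, -3.26 to -1.47), a level 5.17-fold lower, with an adjusted p of 0.042 by edgeR. In DKO against MttpLKO it was -1.93 (SE 0.404, -2.82 to -1.04), 3.81-fold lower, and missed the threshold at an adjusted p of 0.102 by edgeR. In MttpLKO against control it was -0.44 (SE 0.371, -1.26 to 0.38; adjusted p 0.928 by edgeR).

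The Hamp2 call in DKO against control also depended on single libraries. By edgeR it held without MttpLKO replicate 1 (adjusted p 0.0312) or 3 (0.0193). It was lost without DKO replicate 1, 2 or 3 (adjusted p 0.134, 0.0544 or 0.0913 by edgeR), without MttpLKO replicate 2 (0.0702) and without control replicate 1, 2 or 3 (0.0564, 0.185 or 0.143). It was also lost with limma-voom (adjusted p 0.0702) and with a minimum count of 30 (0.0516 by edgeR). DESeq2 called Hamp2 both in DKO against control (3.05e-07) and in DKO against MttpLKO (0.000108). Its log2 fold change stayed between -2.68 and -2.03 when single libraries were left out.

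The 2 copies did not follow the same order of genotypes. Hamp was highest in MttpLKO, and Hamp2 was highest on average in control. For every Hamp2 count there were 268, 181 and 647 Hamp counts in the DKO libraries, 178, 188 and 142 in MttpLKO and 79.1, 47.5 and 67.5 in control. The ratio was higher in every library that lacked Mttp than in every control library, and DKO and MttpLKO overlapped. The larger difference from control was in Hamp for MttpLKO and in Hamp2 for DKO. In MttpLKO against control the log2 difference was 0.98 for Hamp and -0.44 for Hamp2, neither called by edgeR. In DKO against control it was -0.17 for Hamp, not called, and -2.37 for Hamp2, called by edgeR. On the log2 scale the ratio averaged 8.30 ± 0.94 in DKO, 7.39 ± 0.22 in MttpLKO and 5.98 ± 0.38 in control (SD, n = 3 each). MttpLKO exceeded control by 1.41 (2.66-fold), DKO exceeded control by 2.32 (4.98-fold) and DKO exceeded MttpLKO by 0.91 (1.88-fold), and these differences are given as a description with no test. Within a library the ratio does not depend on how libraries were scaled, but it does rest on the Hamp2 counts, which misplaced Hamp reads could alter. Across the 9 libraries Pearson's r between the log2 levels of Hamp and Hamp2 was 0.468, from libraries that share genotype and depth.

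**Figure D2:**
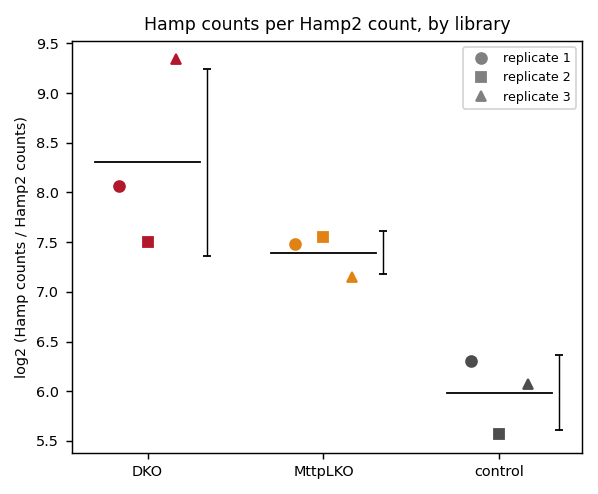
Log2 of Hamp counts per Hamp2 count (y axis) in each pooled library, by genotype. Points are libraries with a shape per replicate number, lines are means and bars are SD (n = 3). All 6 libraries without Mttp lie above the 3 control libraries, and DKO replicate 3, on 35 Hamp2 counts, is the highest.

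The ligand, the iron sensors and the protease of the BMP arm, Bmp6, Hfe, Tfr2 and Tmprss6, passed the test in no comparison. Bmp6 (ENSMUSG00000039004, chromosome 13, 38345716 to 38499728), the ligand, stood at 4.26, 2.47 and 2.29 CPM in DKO, at 3.25, 2.94 and 5.41 CPM in MttpLKO and at 2.95, 2.93 and 2.64 CPM in control, on 51 to 146 counts a library. DKO replicate 1 and MttpLKO replicate 3 were the high ones and all 3 genotypes overlapped. Its log2 fold change was -0.36 (SE 0.296, -1.01 to 0.29; adjusted p 0.76 by edgeR) in DKO against MttpLKO and 0.44 (SE 0.295, -0.21 to 1.09; adjusted p 0.878 by edgeR) in MttpLKO against control. These intervals do not exclude a 2-fold change between DKO and MttpLKO or between MttpLKO and control. In bulk liver, fewer cells of a type and less RNA per cell cannot be told apart, which bears on Bmp6 as a product of endothelial cells. The summed level of 14 sinusoidal endothelial markers was 403 to 577 CPM in DKO, 365 to 509 in MttpLKO and 465 to 582 in control, none of the 14 was at 0 and none was called by edgeR in any comparison. Of the 14, 11 were higher in DKO than in MttpLKO (median log2 difference 0.14) and 3 were higher in MttpLKO than in control (median -0.12), signs opposite to those of Bmp6. Before adjustment, 1 of them, Stab2, a scavenger receptor, had a p under 0.05 by edgeR in each of these comparisons (9.1% and 6.97% of all genes). Chosen after its values were seen, it read 38.0 to 55.1 CPM in DKO, 38.1 to 41.1 in MttpLKO and 55.3 to 63.0 in control (log2 -0.60 in MttpLKO against control, adjusted p 0.15 by edgeR). The part of endothelial cells in the Bmp6 values was not tested.

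Hfe (ENSMUSG00000006611, chromosome 13, 23702034 to 23710854), an MHC class I-like protein that partners the transferrin receptors, averaged 39.2 ± 5.19 CPM in DKO, 45.6 ± 5.43 in MttpLKO and 41.3 ± 2.62 in control. Tfr2 (ENSMUSG00000029716, chromosome 5, 137569851 to 137587481), the liver's second transferrin receptor, averaged 572 ± 10.7 CPM in DKO, 562 ± 88.6 in MttpLKO and 534 ± 11.7 in control. Tmprss6 (ENSMUSG00000016942, chromosome 15, 78439668 to 78468634) averaged 506 ± 54.0 CPM in DKO, 511 ± 49.6 in MttpLKO and 490 ± 8.35 in control. All of these are SD with n = 3.

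For Hfe, Tfr2 and Tmprss6 the largest log2 difference was -0.22 (SE 0.124), for Hfe in DKO against MttpLKO, with an adjusted p of 0.648 by edgeR. The 95% intervals of all 9 differences lay between -0.49 and 0.42. MttpLKO replicate 3 was the lowest library of the 9 for Tfr2, at 460 CPM against 618 and 608 CPM in the other 2 MttpLKO libraries. The 3 DKO libraries (562 to 583 CPM) were above the 3 control libraries (524 to 547 CPM) for Tfr2, a difference of 0.10 (SE 0.126) with an adjusted p of 0.834 by edgeR. Of all tested genes, 8.95% had every DKO library above every control library.

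**Figure D3:**
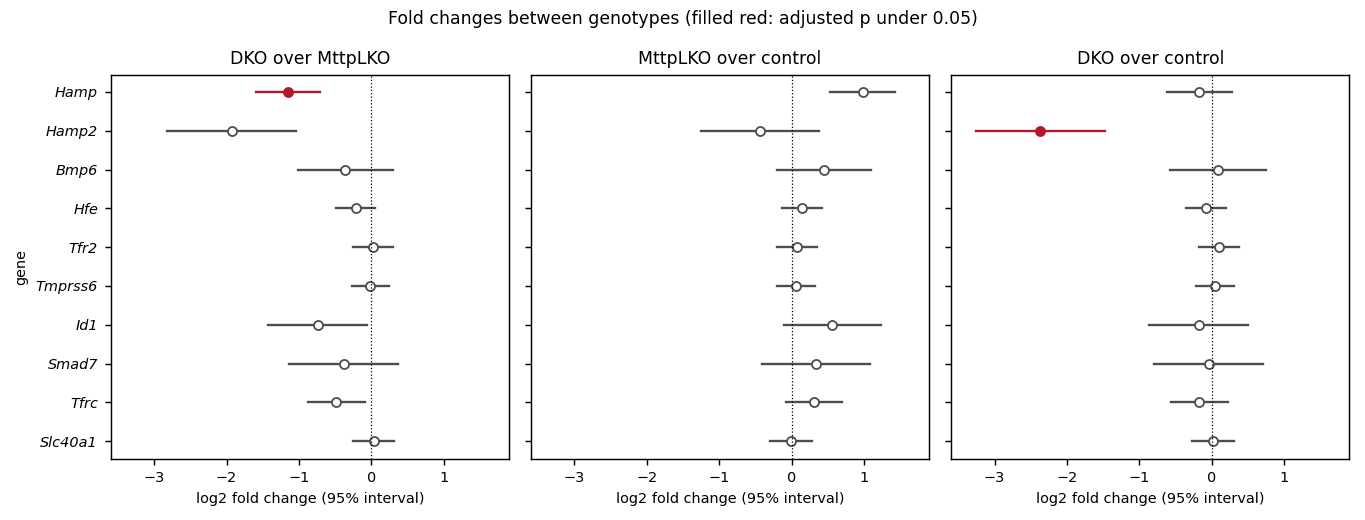
Log2 fold changes of the 10 genes (x axis) in DKO over MttpLKO, MttpLKO over control and DKO over control, with 95% intervals from the edgeR fit. Filled red points passed an adjusted p of 0.05, namely Hamp at -1.15 in DKO over MttpLKO and Hamp2 at -2.37 in DKO over control.

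Id1 and Smad7 are BMP-SMAD target genes often read beside Hamp in liver. Id1 (ENSMUSG00000042745, chromosome 2, 152736251 to 152737410), which encodes a helix-loop-helix inhibitor of DNA binding, stood at 17.5, 28.0 and 14.1 CPM in DKO, at 20.1, 38.0 and 41.7 CPM in MttpLKO and at 16.1, 26.3 and 25.2 CPM in control. MttpLKO replicates 2 and 3 were the highest 2 of the 9 libraries and replicate 1 lay within the other genotypes. The log2 fold change was -0.74 (SE 0.308, -1.42 to -0.07) in DKO against MttpLKO, with an unadjusted p of 0.0345 and an adjusted p of 0.499 by edgeR. It was 0.56 (SE 0.306, -0.11 to 1.24; adjusted p 0.814 by edgeR) in MttpLKO against control and -0.18 (SE 0.308; adjusted p 0.889 by edgeR) in DKO against control.

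Smad7 (ENSMUSG00000025880, chromosome 18, 75367529 to 75395935), the inhibitory SMAD that feeds back on the receptors, stood at 22.8, 31.5 and 12.4 CPM in DKO, at 19.6, 26.5 and 40.9 CPM in MttpLKO and at 16.6, 23.5 and 28.7 CPM in control. The 3 genotypes overlapped and MttpLKO replicate 3 was the highest. Its log2 fold change was -0.38 (SE 0.339, -1.13 to 0.36; adjusted p 0.777 by edgeR) in DKO against MttpLKO and 0.34 (SE 0.338; adjusted p 0.956 by edgeR) in MttpLKO against control. MttpLKO replicate 3, the library high in B and plasma cell and dividing-cell markers, was thus also the highest for Hamp, Bmp6, Id1 and Smad7, and the part of those cells in these values was not tested. Without it, the log2 difference of Hamp was -0.995 in DKO against MttpLKO and 0.82 in MttpLKO against control, and that of Id1 was -0.546 and 0.361. Without it, that of Bmp6 was -0.0355 and 0.116, and that of Smad7 was -0.05 and 0.00229. The Bmp6 and Smad7 differences from MttpLKO thus rested largely on this library, though that of Smad7 in DKO against MttpLKO was also small without DKO replicate 3 (-0.0857). None of these was called by edgeR.

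On the receiving side of iron, Tfrc (ENSMUSG00000022797, chromosome 16, 32608920 to 32632794), the transferrin receptor that takes iron into most cells, stood at 16.2, 12.6 and 11.5 CPM in DKO, at 15.9, 22.8 and 17.9 CPM in MttpLKO and at 16.3, 12.8 and 16.6 CPM in control. MttpLKO replicate 2 was the highest, and DKO replicate 1 lay just inside the MttpLKO range. The log2 fold change in DKO against MttpLKO was -0.485 (SE 0.179, -0.88 to -0.09), with an unadjusted p of 0.0203 and an adjusted p of 0.432 by edgeR. It was 0.31 (SE 0.177; adjusted p 0.834 by edgeR) in MttpLKO against control.

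Slc40a1 (ENSMUSG00000025993, chromosome 1, 45908068 to 45926523) encodes ferroportin, hepcidin's target, which hepcidin controls as a protein. It averaged 67.0 ± 11.9 CPM in DKO, 65.6 ± 2.21 in MttpLKO and 66.2 ± 6.11 in control (SD, n = 3 each). The means were closer to each other than the SD of any of the 3 genotypes, and the 95% intervals of its 3 log2 differences lay between -0.30 and 0.32. Slc40a1 is also made by Kupffer cells, the liver's macrophages. The summed level of 13 other macrophage markers was 228, 256 and 115 CPM in the DKO libraries, 65.1, 84.1 and 218 CPM in MttpLKO and 227, 165 and 166 CPM in control. With Slc40a1 counted, 14 of 14 macrophage markers were higher in DKO than in MttpLKO (median log2 difference 0.71) and 1 of 14 was higher in MttpLKO than in control (median -0.57), though none passed the threshold by edgeR. Without adjustment, 6 of the 14 had a p under 0.05 by edgeR in the first comparison (9.1% of all genes) and 5 in the second (6.97%). The genotypes thus ranked in the opposite order for these markers and for Hamp, whose level was highest in MttpLKO. MttpLKO replicate 3, the highest for Hamp, was an exception, with macrophage markers in the range of the other genotypes. The part of macrophages in the Hamp difference was not tested.

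Over the 10 genes together, 8 of 10 log2 differences were below 0 in DKO against MttpLKO, with a median of -0.37, beside -0.016 over all tested genes. For MttpLKO against control, 8 of 10 were above 0, with a median of 0.23 beside 0.011. These 2 comparisons share the MttpLKO libraries. For DKO against control, 4 of 10 were above 0 and 6 below, with a median of -0.06 beside -0.002. The 3 libraries of DKO and the 3 of MttpLKO did not overlap for 2 of the 10 genes, Hamp and Hamp2, both lower in DKO. Of all tested genes, 11.5% did not overlap there, 5.67% with DKO higher and 5.83% with DKO lower. The libraries of MttpLKO and control did not overlap for 1 gene, Hamp, higher in MttpLKO, where 14.3% of all genes did not, 7.27% with MttpLKO higher and 6.99% with MttpLKO lower. DKO and control did not overlap for 2 genes, Hamp2, lower in DKO, and Tfr2, higher in DKO, where 18.1% of all genes did not, 8.95% with DKO higher and 9.18% with DKO lower.

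Levels between genes were compared per length, in the deposited RPKM (counts scaled to library size and gene length). Hamp was by far the most abundant, at 2304 to 6962 RPKM over the 9 libraries, and its mean of 3684 RPKM ranked 19 among all genes and was 19.4 times that of the next member. Tfr2 followed at 161 to 208 RPKM and Tmprss6 at 146 to 178 RPKM, and their ranges overlapped. Hamp2 (3.44 to 54.9 RPKM) and Id1 (11.7 to 36.8 RPKM) came next and overlapped, Id1 overlapped Hfe (9.79 to 13.9 RPKM), and Hfe lay wholly above Slc40a1 (6.52 to 8.80 RPKM). Smad7 (2.62 to 9.26 RPKM) overlapped both Slc40a1 and Tfrc (1.78 to 3.59 RPKM). Bmp6 was the lowest by its mean, at 0.91 to 2.30 RPKM, and overlapped Tfrc. Relative to its mean, Tfr2 varied least among the DKO libraries, Slc40a1 among the MttpLKO libraries and Tmprss6 among the control libraries, and Hamp2 varied most in all 3 genotypes.

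**Figure D4:**
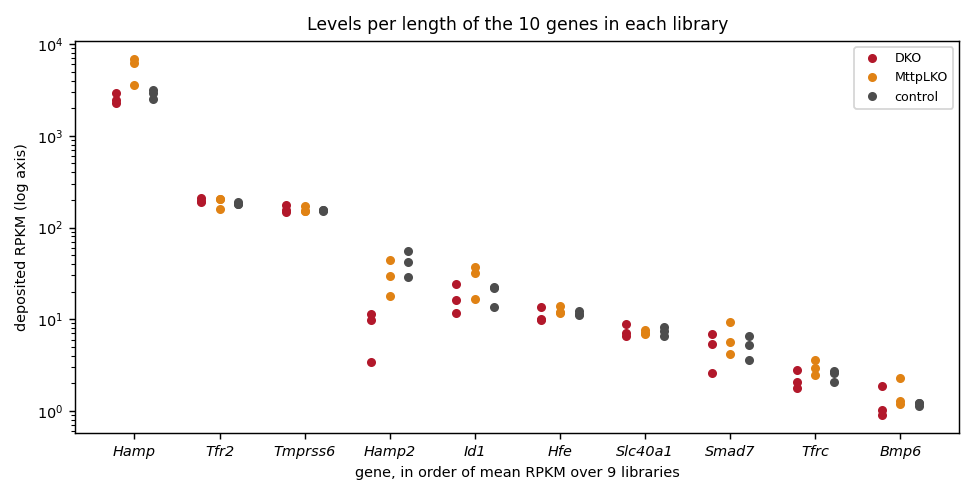
Deposited RPKM (log axis) of the 10 genes in each of the 9 libraries, genes in order of their mean, points coloured by genotype. Hamp lies apart from the rest at 2304 to 6962 RPKM, and Hamp2 has the widest spread, from 3.44 to 54.9 RPKM.

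By Pearson correlation of log2(CPM + 1) over the 9 libraries, the genes most like Hamp among 12425 genes were Dpep1 (r = 0.942), Gm5741 (0.921), Letm2 (0.918), Pianp (0.917) and Pamr1 (0.913). The libraries share genotype and depth, so these are descriptions. Dpep1, a membrane dipeptidase, stood at 1.89, 1.92 and 1.34 CPM in DKO, at 2.83, 4.15 and 4.49 CPM in MttpLKO and at 1.496, 1.66 and 1.63 CPM in control. As for Hamp, its 3 MttpLKO libraries were the highest and replicate 1 the lowest of them. Of the other members, Tfrc (r = 0.766) and Id1 (r = 0.757) were the most like Hamp, ahead of Bmp6 (0.574) and Smad7 (0.52). Tmprss6 (-0.23) and Tfr2 (-0.226) were the least like it.

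The wider BMP arm was read from 36 genes for ligands, receptors, SMADs and their modulators, of which 33 were tested. None was called by edgeR in any of the 3 comparisons. Its median log2 difference was 0.042 in DKO against MttpLKO, 0.068 in MttpLKO against control and 0.08 in DKO against control, beside -0.016, 0.011 and -0.002 over all genes. Before adjustment, 3, 2 and 5 of the 33 had a p under 0.05 by edgeR, where 9.1%, 6.97% and 11.2% of all genes did. The genes with the smallest p included Smad5, a SMAD that carries the BMP signal, at 25.3 ± 1.15 CPM in DKO and 31.0 ± 0.522 CPM in MttpLKO (log2 -0.30, adjusted p 0.314 by edgeR). Smurf1, a ubiquitin ligase that removes SMADs, was at 27.5 ± 3.27 CPM in DKO and 20.7 ± 3.50 CPM in MttpLKO (log2 0.41, adjusted p 0.386 by edgeR). Fgl1, a secreted hepatocyte protein reported to lower hepcidin, stood at 303 ± 119 CPM in DKO, 234 ± 42.9 in MttpLKO and 146 ± 32.8 in control. Its log2 difference was 1.06 in DKO against control (adjusted p 0.202 by edgeR) and 0.69 in MttpLKO against control (adjusted p 0.648 by edgeR). The DKO and control libraries overlapped for Fgl1, and all 3 MttpLKO libraries lay above control. Fst, which encodes the activin-binding protein follistatin, stood at 5.05 ± 1.14 CPM in DKO and 2.28 ± 0.648 CPM in control (log2 1.14, adjusted p 0.2 by edgeR).

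Of 13 genes listed as BMP-SMAD targets, Hamp, Hamp2, Id1 and Smad7 among them, 1 was called by edgeR in each comparison. Of all genes, 0.4% were called in DKO against MttpLKO, 0.346% in MttpLKO against control and 0.332% in DKO against control. The called genes were Hamp, lower in DKO than in MttpLKO, Kcp, lower in MttpLKO than in control, and Hamp2, lower in DKO than in control. They did not share a pattern, as Kcp was lowest in MttpLKO, where Hamp was highest. The median log2 difference was -0.28 in DKO against MttpLKO, with 3 of 13 genes above 0, and 0.26 in MttpLKO against control, with 10 of 13 above 0. For DKO against control the median was -0.045, with 6 of 13 above 0. Before adjustment, at a p under 0.05 by edgeR, 1 gene was higher and 4 lower in DKO against MttpLKO (9.1% of all genes in either direction). In MttpLKO against control 4 were higher and 1 lower (6.97%), and in DKO against control 1 was lower (11.2%).

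Kcp encodes a secreted modulator of BMP signalling. It stood at 22.9, 23.3 and 28.1 CPM in DKO, at 15.9, 15.1 and 18.0 CPM in MttpLKO and at 28.7, 28.6 and 28.5 CPM in control, with MttpLKO below all other libraries. It fell by 0.81 on the log2 scale in MttpLKO against control (SE 0.116, adjusted p 0.0175 by edgeR). In DKO against MttpLKO the log2 difference was 0.60 (SE 0.116, adjusted p 0.0715 by edgeR). The Kcp call in MttpLKO against control was lost without MttpLKO replicate 2 (adjusted p 0.0799 by edgeR) and without control replicate 1, 2 or 3 (0.0594, 0.0873 or 0.0803). Id4, a relative of Id1, stood at 0.764, 0.724 and 0.762 CPM in DKO, at 1.41, 0.992 and 1.96 CPM in MttpLKO and at 0.647, 0.828 and 0.543 CPM in control, highest in MttpLKO as Hamp was, at an adjusted p of 0.379 (DKO against MttpLKO) and 0.351 (MttpLKO against control) by edgeR. Id4 lies outside the rule for named genes and was chosen after its values were seen.

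**Figure D5:**
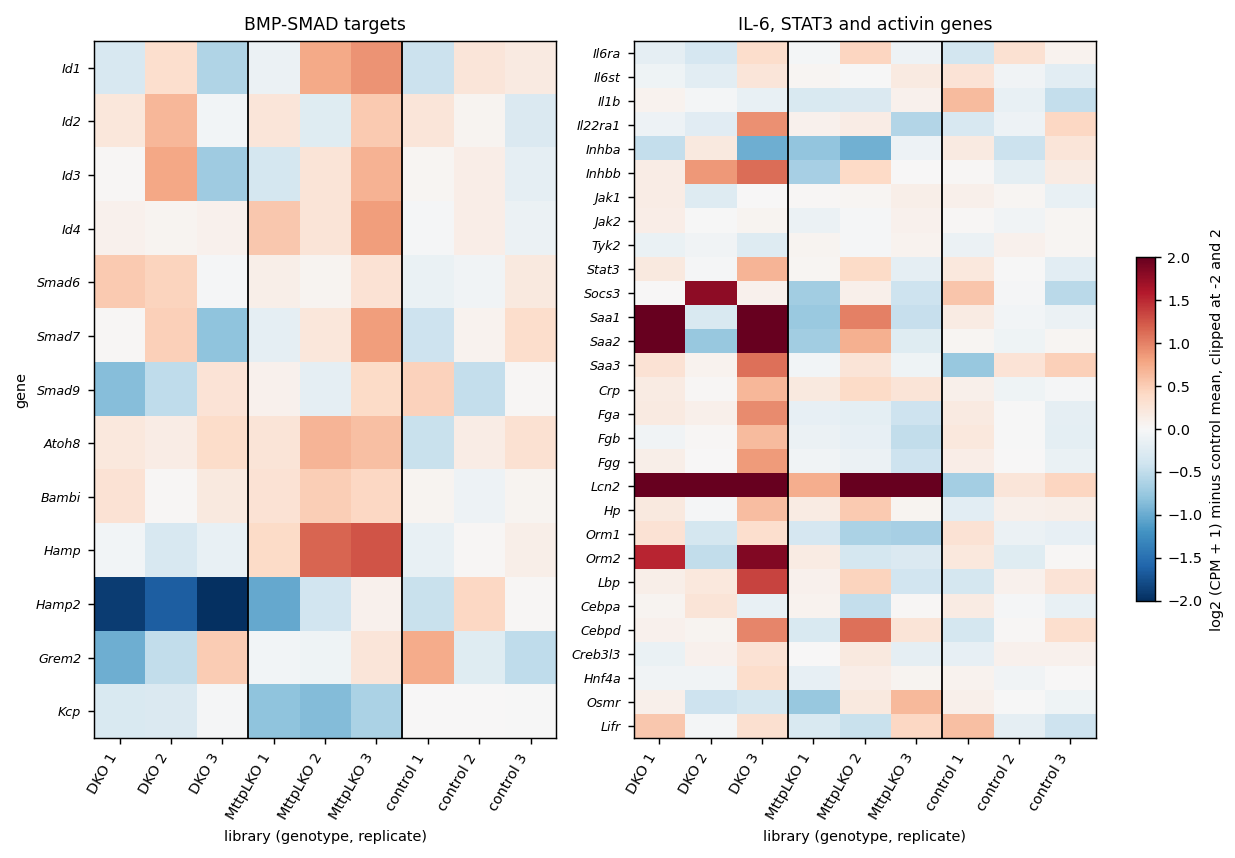
Log2 (CPM + 1) of each gene minus its mean in the control libraries, clipped at -2 and 2, for 13 BMP-SMAD targets (left) and 29 genes of the IL-6, STAT3 and activin arm (right). Columns are the 9 libraries by genotype and replicate. On the left Hamp is highest in the 3 MttpLKO columns and Hamp2 lowest in the 3 DKO columns, and on the right Lcn2 is highest in DKO and Saa1 and Saa2 are high in DKO replicates 1 and 3.

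The inflammatory arm was read from 30 genes of interleukin 6, STAT3 and activin signalling and the acute phase, of which 29 were tested. Il6 itself had no counts in any library. In DKO against MttpLKO none of the 29 was called by edgeR, though 23 of 29 were higher in DKO with a median of 0.27. All 10 genes with an unadjusted p under 0.05 by edgeR were higher, where 9.1% of all genes had such a p in either direction. Between MttpLKO and control none was called by edgeR either, 15 of 29 were higher with a median of 0.01, and 2 had an unadjusted p under 0.05 (6.97% of all genes). Between DKO and control 1 rose and none fell, where 0.237% of all genes were called as rises and 0.095% as falls. Of the 29, 22 were higher and the median was 0.28. All 5 genes with an unadjusted p under 0.05 by edgeR there were higher, where 11.2% of all genes had such a p in either direction. Hamp was lower in DKO than in MttpLKO, and the part of inflammatory signalling in that difference was not tested.

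The gene that rose was Lcn2, lipocalin 2, an acute-phase protein that binds iron-carrying siderophores. It stood at 93.4, 80.7 and 146 CPM in DKO, at 23.1, 56.8 and 64.5 CPM in MttpLKO and at 8.13, 16.3 and 18.7 CPM in control, with no overlap between the 3 genotypes. It was 7.43-fold higher in DKO than in control (log2 2.89, SE 0.408, adjusted p 0.0137 by edgeR). Between MttpLKO and control the log2 difference was 1.74 (SE 0.395, adjusted p 0.148 by edgeR) and in DKO against MttpLKO it was 1.15 (SE 0.381, adjusted p 0.368 by edgeR). The call in DKO against control was lost without DKO replicate 3 (adjusted p 0.0532 by edgeR) and without control replicate 1, 2 or 3 (0.0536, 0.0737 or 0.0587). The Lcn2 difference in MttpLKO against control passed the threshold in 4 of 17 alternatives. These were DESeq2 (adjusted p 0.0462), no low-count filter (0.0011 by edgeR), a replicate block (0.0344 by edgeR) and leaving out MttpLKO replicate 1. Without that replicate the log2 difference was 2.07 (adjusted p 0.0311 by edgeR). In DKO against MttpLKO, Lcn2 passed in 1 of 17, with no low-count filter (adjusted p 0.0464 by edgeR).

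Saa1 and Saa2, which encode serum amyloid A, were high in part of the DKO libraries. Saa1 stood at 531, 46.0 and 739 CPM in DKO, at 33.9, 116 and 41.4 CPM in MttpLKO and at 64.3, 55.2 and 52.8 CPM in control. Saa2 stood at 251, 12.3 and 473 CPM in DKO, at 13.0, 35.8 and 18.0 CPM in MttpLKO and at 22.2, 20.2 and 22.3 CPM in control. DKO replicates 1 and 3 were far above all other libraries and DKO replicate 2 was not. With that spread neither was called in DKO against MttpLKO (adjusted p 0.252 for Saa1 and 0.205 for Saa2 by edgeR). Hamp ran from 901 to 1078 CPM within DKO, lowest in replicate 2 and highest in replicate 1, while Saa1 and Saa2 were highest in replicate 3. The 2 genes are near copies, so reads may be split between them.

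Of 28 genes of iron uptake, storage and export, 24 were tested. Lcn2 in DKO against control was the single call by edgeR over the 3 comparisons. Of all genes, 0.332% were called in that comparison, 0.4% in DKO against MttpLKO and 0.346% in MttpLKO against control. The median log2 difference was 0.038 in DKO against MttpLKO, 0.102 in MttpLKO against control and 0.16 in DKO against control. Over all genes it was -0.016, 0.011 and -0.002. Before adjustment, 6, 3 and 6 of the 24 had a p under 0.05 by edgeR, where 9.1%, 6.97% and 11.2% of all genes did. In the same order, 4, 2 and 4 of these were higher and 2, 1 and 2 lower. Steap2, a metalloreductase that reduces iron for uptake, had the smallest p in DKO against MttpLKO, at 5.38 ± 0.553 CPM in DKO and 9.13 ± 1.24 CPM in MttpLKO (log2 -0.76, adjusted p 0.133 by edgeR). Ftl1, the ferritin light chain that stores iron, stood at 427 ± 64.3 CPM in MttpLKO and 329 ± 44.1 CPM in control (log2 0.37, adjusted p 0.576 by edgeR). Reads of ferritin genes may be shared with their processed pseudogenes.

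The iron-responsive genes, whose mRNAs iron-regulatory proteins bind or which control those proteins, were all 15 tested and none was called by edgeR. The medians were -0.034 in DKO against MttpLKO, 0.14 in MttpLKO against control and 0.045 in DKO against control. Before adjustment, 3, 1 and 3 of the 15 had a p under 0.05 by edgeR, where 9.1%, 6.97% and 11.2% of all genes did. Slc11a2, the iron transporter DMT1, was at 36.4 ± 2.61 CPM in DKO, 29.5 ± 2.21 in MttpLKO and 29.2 ± 1.57 in control, with an adjusted p of 0.382 against MttpLKO and 0.284 against control by edgeR.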

How the data were processed

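Per the labels' protocols, libraries were made from oligo(dT)-selected Trizol RNA after DNase. The submitters' processing notes name STAR 2.0.4b, Subread and featureCounts 1.4.5 without saying what each did. Genome build, annotation, strand setting and the handling of multiply mapped reads: not given in the sources used here. The deposited tables hold whole-number counts per gene, and beside them CPM and RPKM values that the authors computed from those counts. Recomputed CPM and RPKM differed from the deposited ones by at most 5.09e-11 and 4.73e-11. GENCODE M21 (GRCm38) held 97.26% of the Ensembl identifiers, with 82.13% of those at an identical start. Of the 224 list genes fixed, 223 were found, 3 of them by an older symbol.

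Counts were tested with edgeR 4.0.16 (R 4.3.3): TMM scaling, filterByExpr with a minimum count of 10 (14741 genes kept), 1 quasi-likelihood fit of 3 genotype means over 9 libraries, and Benjamini-Hochberg adjustment over all genes tested with a threshold of 0.05. Sharing 1 fit lets the spread of the third genotype weigh on each comparison. The biological coefficient of variation was 18.3%. Standard errors were derived from F. CPM in the text is on TMM-scaled library sizes. RPKM is as deposited. No 2 replicates were alike enough to be 1 library deposited again (chi-square over degrees of freedom, 21.4 to 71.3), so each library counted as 1 sample. The fit was tested on simulated counts. The 10 genes, the 7 pathway lists, the 6 marker lists and the tests were chosen with earlier results of these data known. All 10 genes were named, and of each pathway list every called gene and the 2 smallest p-values per comparison could be named. The 17 alternatives were other scalings, filters and tools, the 6 libraries compared alone, a replicate block and leaving out each library. They were run on Kcp, Lcn2 and Derl3 only after those genes had passed the threshold. DESeq2 1.42.0 and limma-voom (limma 3.58.1) were the other tools.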

Additional observations from a re-analysis of the deposited data

How the results depend on the processing

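Over the 10 genes, 3 comparisons and 17 alternatives, 467 of 510 values kept their direction and their side of the threshold, 20 lost a call, 5 gained one and 18 changed sign. Most of the 510 had no call to lose, and only the Hamp and Hamp2 calls could be lost. Hamp in DKO against MttpLKO kept its call in 7 of 17 alternatives and lost it in 10. Hamp2 in DKO against control also kept its call in 7 of 17 and lost it in 10. The Hamp difference between DKO and MttpLKO had an adjusted p of 6.49e-06 to 0.215 over the alternatives. It was not called with the 6 libraries alone (-1.15, adjusted p 0.133 by edgeR) or with a replicate block (-1.11, 0.0824), and ran from -1.36 to -0.995 without single libraries. Hamp in MttpLKO against control (adjusted p 0.000419 to 0.364) was called with DESeq2 (0.98, 0.000419) and with no low-count filter (0.978, 0.00297), and ran from 0.82 to 1.21 without single libraries. Hamp in DKO against control ran from -0.23 to -0.0904. The number of the 10 genes called in DKO against MttpLKO was 2 with DESeq2 and with no filter, Hamp2 being the addition (adjusted p 0.000108 and 0.00077), and 0 with the 6 libraries alone and with the block. In MttpLKO against control it was 1 with DESeq2 and with no filter. In DKO against control it was 0 with limma-voom (Hamp2 -2.47, adjusted p 0.0702), with a minimum count of 30 (0.0516) and with the block (-2.33, 0.0616). It was 0 to 1 in each comparison without single libraries. All 18 sign changes were in genes that were not called. In DKO against control they were Bmp6 (-0.257 without DKO replicate 1), Id1 (0.0109 without DKO replicate 3, range over single libraries from -0.499), and Smad7 (0.147 without control replicate 3, 0.24 without DKO replicate 3, range from -0.366). Slc40a1 in DKO against control read -0.000632 with upper quartile scaling, -0.0328 without control replicate 1 and -0.106 without DKO replicate 2 (range up to 0.141). Against MttpLKO it read -0.0927 without DKO replicate 2 (up to 0.153), and in MttpLKO against control 0.0403 without control replicate 3 and 0.0145 without MttpLKO replicate 2 (from -0.0802). Tfr2 read -0.0978 in DKO against MttpLKO without MttpLKO replicate 3 (range up to 0.118) and -0.00364 in MttpLKO against control without MttpLKO replicate 1 (up to 0.193). Tmprss6 read -0.0337 in DKO against control without DKO replicate 2 (range up to 0.102). In DKO against MttpLKO it read 0.00422 without control replicate 1, 0.0439 and 0.0248 without DKO replicates 1 and 3, and 0.0865 without MttpLKO replicate 1. In MttpLKO against control it read -0.0256 without MttpLKO replicate 1 (up to 0.106). The cause of these changes was not tested. Over all genes edgeR called 38 higher and 21 lower in DKO against MttpLKO, 33 and 18 in MttpLKO against control, and 35 and 14 in DKO against control, where DESeq2 called 130 and 76, 107 and 59, and 177 and 79, and edgeR with no filter 107 and 73, 112 and 59, and 149 and 52. With the 6 libraries alone it called 22 and 12, 24 and 26, and 61 and 17, and without control replicate 3 it called 31 and 15, 7 and 7, and 11 and 4. Deviations of same-numbered libraries from their genotype means had correlations of -0.244 to 0.088. With 3 libraries per genotype these values cannot decide whether the numbers mark a pairing. The replicate block called 30 and 13, 22 and 13, and 31 and 9. Of the libraries, 0 of 6, 0 of 6 and 4 of 6 correlated best with their own number in the 3 comparisons. Counts of 35 to 638 limit Hamp2 and counts of 51 to 146 limit Bmp6.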

Other observations

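Heme genes did not differ between genotypes by the test. All 24 genes of heme synthesis, transport and breakdown were tested and none was called by edgeR in any comparison, with median log2 differences of -0.018 in DKO against MttpLKO, 0.015 in MttpLKO against control and -0.03 in DKO against control. Before adjustment, 1, 3 and 4 of the 24 had a p under 0.05 by edgeR, where 9.1%, 6.97% and 11.2% of all genes did. Slc48a1, the heme transporter HRG1, stood at 84.1 ± 1.91 CPM in DKO, 85.1 ± 7.18 in MttpLKO and 65.5 ± 8.09 in control (SD, n = 3 each), with an adjusted p of 0.267 in DKO against control and 0.371 in MttpLKO against control by edgeR. Cd163, the macrophage receptor for hemoglobin bound to haptoglobin, stood at 5.71 ± 0.759 CPM in DKO, 3.14 ± 1.47 in MttpLKO and 6.26 ± 0.813 in control (adjusted p 0.402 in DKO against MttpLKO by edgeR). Uros, an enzyme of heme synthesis, stood at 19.0 ± 3.05 CPM in DKO, 24.0 ± 1.93 in MttpLKO and 25.3 ± 4.16 in control (adjusted p 0.353 in DKO against control by edgeR). The 22 genes that build iron-sulfur clusters were all tested and none was called by edgeR, with medians of 0.046, -0.017 and -0.017 in the same order of comparisons. Of these, 0, 0 and 1 had an unadjusted p under 0.05, beside the same 9.1%, 6.97% and 11.2% of all genes.

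Of the 6 marker lists, 1 gene passed the threshold, in DKO against control, where 0.332% of all genes were called. None passed in DKO against MttpLKO (0.4% of all genes) or in MttpLKO against control (0.346%). Derl3, which encodes a protein of endoplasmic reticulum-associated degradation and was listed as a plasma cell marker, averaged 17.8 ± 9.02 CPM in DKO, 6.20 ± 0.459 in MttpLKO and 4.36 ± 0.295 in control (SD, n = 3 each). It was 4.09-fold higher in DKO than in control (log2 2.03, SE 0.341, adjusted p 0.0375 by edgeR). The call was lost with limma-voom (adjusted p 0.14) and with the 6 libraries alone (0.0548 by edgeR). By edgeR it was also lost without DKO replicate 1 (0.127) or 3 (0.106), without MttpLKO replicate 2 (0.0509) and without control replicate 1, 2 or 3 (0.112, 0.201 or 0.171). The summed level of the list, Derl3 included, was 79.1, 32.8 and 54.1 CPM in DKO, 35.8, 56.5 and 651 CPM in MttpLKO and 30.1 to 34.7 CPM in control. Before adjustment, 5 of its 10 genes had a p under 0.05 by edgeR in DKO against MttpLKO, 1 higher and 4 lower (9.1% of all genes). In MttpLKO against control 5 did, all higher (6.97%), and in DKO against control only Derl3 did (11.2%). The part of plasma cells in the Derl3 difference was not tested. Erythroid markers other than Tfrc summed to 168 to 240 CPM in DKO, 173 to 221 in MttpLKO and 200 to 327 in control, and none was called by edgeR. Alas2, the erythroid enzyme of heme synthesis, made up 72.9 to 102 CPM of each sum. With Tfrc counted, 8 genes of the list were tested. Of these, 5 were higher in DKO than in MttpLKO (median log2 difference 0.022), 2 were higher in MttpLKO than in control (median -0.54) and 1 was higher in DKO than in control (median -0.47). Klf1, an erythroid transcription factor, stood at 5.27, 5.66 and 2.42 CPM in DKO, at 2.75, 2.09 and 1.07 CPM in MttpLKO and at 5.90, 8.09 and 7.34 CPM in control. Its level in MttpLKO was 3.6-fold lower than in control (log2 -1.85, adjusted p 0.0813 by edgeR), and in DKO against MttpLKO the log2 difference was 1.18 (adjusted p 0.326 by edgeR). Outside Tfrc, it was the single gene of the list with an unadjusted p under 0.05, in these comparisons and not in DKO against control. Derl3 and Klf1 were named after their values were seen.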
